A study of Canis lupus familiaris with 5 samples.

Results

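The genes described here are 55 dog gene models with few or no counts in fibroblasts and in induced neural stem cell-like cells (iNSLCs), and with counts in every clone of induced pluripotent stem cells (iPSCs). They were chosen by their measured levels, in CPM (the count of a gene divided by the total of its library, times 1000000). A member had under 1 CPM in the fibroblast library, under 1 CPM in the iNSLC library and at least 5 CPM in each of the 3 iPSC libraries. Of 32183 gene models outside the mitochondrial genome, 55 met all 5 limits. Members are therefore higher in iPSCs by construction, and their levels in the 3 stages are given as a description.

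All 5 libraries came from cells of 1 adult dog, named K9, whose ear skin gave the fibroblasts (passage 1, 1 library). The iNSLCs (passage 2, 1 library) were primary colonies that formed after fibroblasts had received the EP-B set of episomal vectors, which carry human LIN28, L-MYC, KLF4, SOX2 and OCT4 together with a dominant-negative form of mouse p53 and further factors. The iPSC clones (clone 1 at passage 9, clones 2 and 3 at passage 8) were obtained after the culture had been moved from the induction medium to a medium for embryonic stem cells. The paper describes mouse feeder cells for the induction of marmoset fibroblasts, and its main text does not name them for the dog. Passage went with stage in every library, and no library came from a second dog.

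Episomal vectors replicate outside the chromosomes and are lost as cells divide. During such reprogramming a fibroblast first loses its own expression programme, and genes of the pluripotency network that the cell itself carries, with OCT4, SOX2 and NANOG at its centre, come on later and then maintain each other. The paper treats the iNSLC as an intermediate of this route that presumably resembles neural stem cells. A gene scarce in both earlier libraries had few counts there, and the time at which its transcripts appear was not followed. The files name genes by Ensembl dog identifiers and pair none with a symbol. The roles of the 55 genes are hence not given, and neither the pluripotent nor the fibroblast identity of the libraries could be checked against marker genes.

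The libraries held between 11699186 counts (iNSLCs) and 34317091 counts (iPSC clone 3), so that 3 counts corresponded to between 0.0874 and 0.256 CPM. In the iNSLC library 74.0% of all counts from 1 to 10 were even, against 63.99% in the fibroblast library and 59.6% to 61.6% in the clones. Even values prevail where a read pair gives 2 counts, in which case 3 counts stand for fewer fragments. Folds against 3 fragments would then be lower than the folds given below. Clone 2 stood apart from the other 2 clones. With all clones 13.7% of 17479 tested genes were called higher in iPSCs than in fibroblasts, and 21.2% were called without clone 2, against 10.95% without clone 1 and 7.53% without clone 3.

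Most genes that were off in fibroblasts and on in iPSCs had counts in the iNSLCs already. At least 5 CPM in each clone was reached by 9858 gene models, of which 505 were under 1 CPM in fibroblasts. Among these 505, 316 (62.6%) had at least 5 CPM in the iNSLCs as well and 134 (26.5%) lay between 1 and 5 CPM. The remaining 55 (10.9%) are the members. The 3 classes also differed in their level in iPSCs. The median over genes of the mean iPSC level was 10.002 CPM for the members, 12.9 CPM for the class between 1 and 5 CPM in iNSLCs and 28.0 CPM for the class with at least 5 CPM, against 41.8 CPM over all 9858 models. Bulk libraries do not show whether a low iNSLC value stands for few cells with a transcript or for little RNA in each cell.

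**Figure D1:**
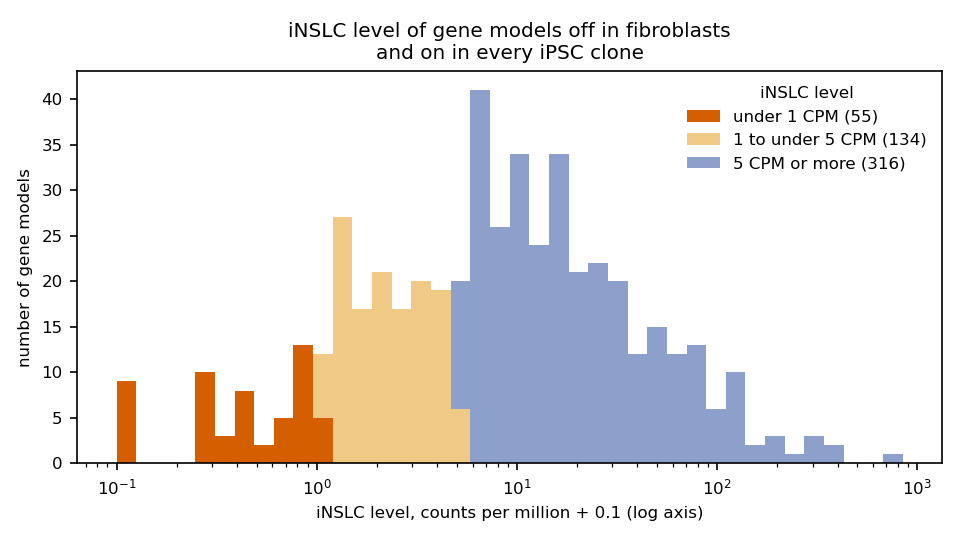
Number of gene models (vertical axis) by iNSLC level in CPM plus 0.1 (log axis) for the 505 models under 1 CPM in fibroblasts and at least 5 CPM in each iPSC clone. The 55 members form the low end of a continuous distribution, and the bar at the left edge holds the 9 members with 0 counts in iNSLCs.

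The limits cut through this distribution without a gap. On the iNSLC side, ENSCAFG00000032656 (chromosome 13) was just inside with 0.940 CPM and ENSCAFG00000035108 just outside with 1.03 CPM. Their levels in clones 1, 2 and 3 were 7.98, 8.24 and 13.8 CPM for the former and 7.04, 7.79 and 9.73 CPM for the latter. On the fibroblast side, ENSCAFG00000015893 (chromosome 3) was inside with 0.871 CPM and ENSCAFG00000003681 outside with 1.11 CPM. Among models that failed a single limit, most failed the iNSLC limit. It alone was failed by 450 models, the fibroblast limit alone by 32, and the limit in clone 1, 2 or 3 alone by 20, 15 and 4.

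In the clones, the nearest members were ENSCAFG00000002834 (5.14 CPM in clone 1), ENSCAFG00000005458 (5.44 CPM in clone 2) and ENSCAFG00000003532 (5.36 CPM in clone 3). The nearest models outside were ENSCAFG00000032693 (4.87 CPM in clone 1), ENSCAFG00000007624 (4.50 CPM in clone 2) and ENSCAFG00000020292 (4.92 CPM in clone 3). ENSCAFG00000032693 had 0 counts in both fibroblasts and iNSLCs, which only 5 members had, and missed the rule by its level in clone 1.

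Few members were at 0 in both earlier stages. In fibroblasts 20 members had 0 counts and 26 had under 3 counts, in iNSLCs 9 had 0 counts and 19 had under 3, although the iNSLC library was the shallowest. In CPM the iNSLC level was above the fibroblast level for 37 members and below it for 13. Levels of 0.5 CPM or more were reached by 23 members in iNSLCs and by 13 in fibroblasts. Together the members took 0.00124% of all counts in fibroblasts and 0.00232% in iNSLCs, and 0.0874%, 0.225% and 0.10002% in clones 1, 2 and 3. Only 5 members had 0 counts in both earlier libraries, and the other 50 had low counts in at least 1 of them.

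These 5 members spanned a range of levels. ENSCAFG00000002620 (chromosome 1, 102481015 to 102491217, 17 exons) had 12.5, 65.0 and 21.8 CPM in clones 1, 2 and 3. Its mean was 33.1 ± 28.0 CPM (SD, n = 3 clones). This was 367 times the level of 3 counts in fibroblasts and 129 times that in iNSLCs. Clone 2 raised this mean, so the folds of clones 1 and 3 were lower. ENSCAFG00000040276 (chromosome 11, 36493257 to 36499462, 2 exons) had 24.02, 31.4 and 34.2 CPM, a mean of 29.9 ± 5.24 CPM (SD, n = 3). Its clones lay close together, whereas clone 2 of ENSCAFG00000002620 was far above the others. ENSCAFG00000001162 (chromosome 11) had 9.84, 32.2 and 11.1 CPM, and ENSCAFG00000015192 (chromosome 20) had 5.58, 18.1 and 5.54 CPM. ENSCAFG00000032005 (chromosome X) had 5.34, 12.5 and 8.95 CPM, again with clone 2 highest.

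Most members were present at low levels in iPSCs, and 3 stood well above the rest. The mean over clones was at least 100 CPM for 3 members, from 20 to 100 CPM for 10, from 10 to 20 CPM for 15 and under 10 CPM for 27, with a range from 6.18 to 246 CPM. The 3 most abundant members took 38.5%, 47.0% and 34.6% of the summed CPM of all members in clones 1, 2 and 3.

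**Figure D2:**
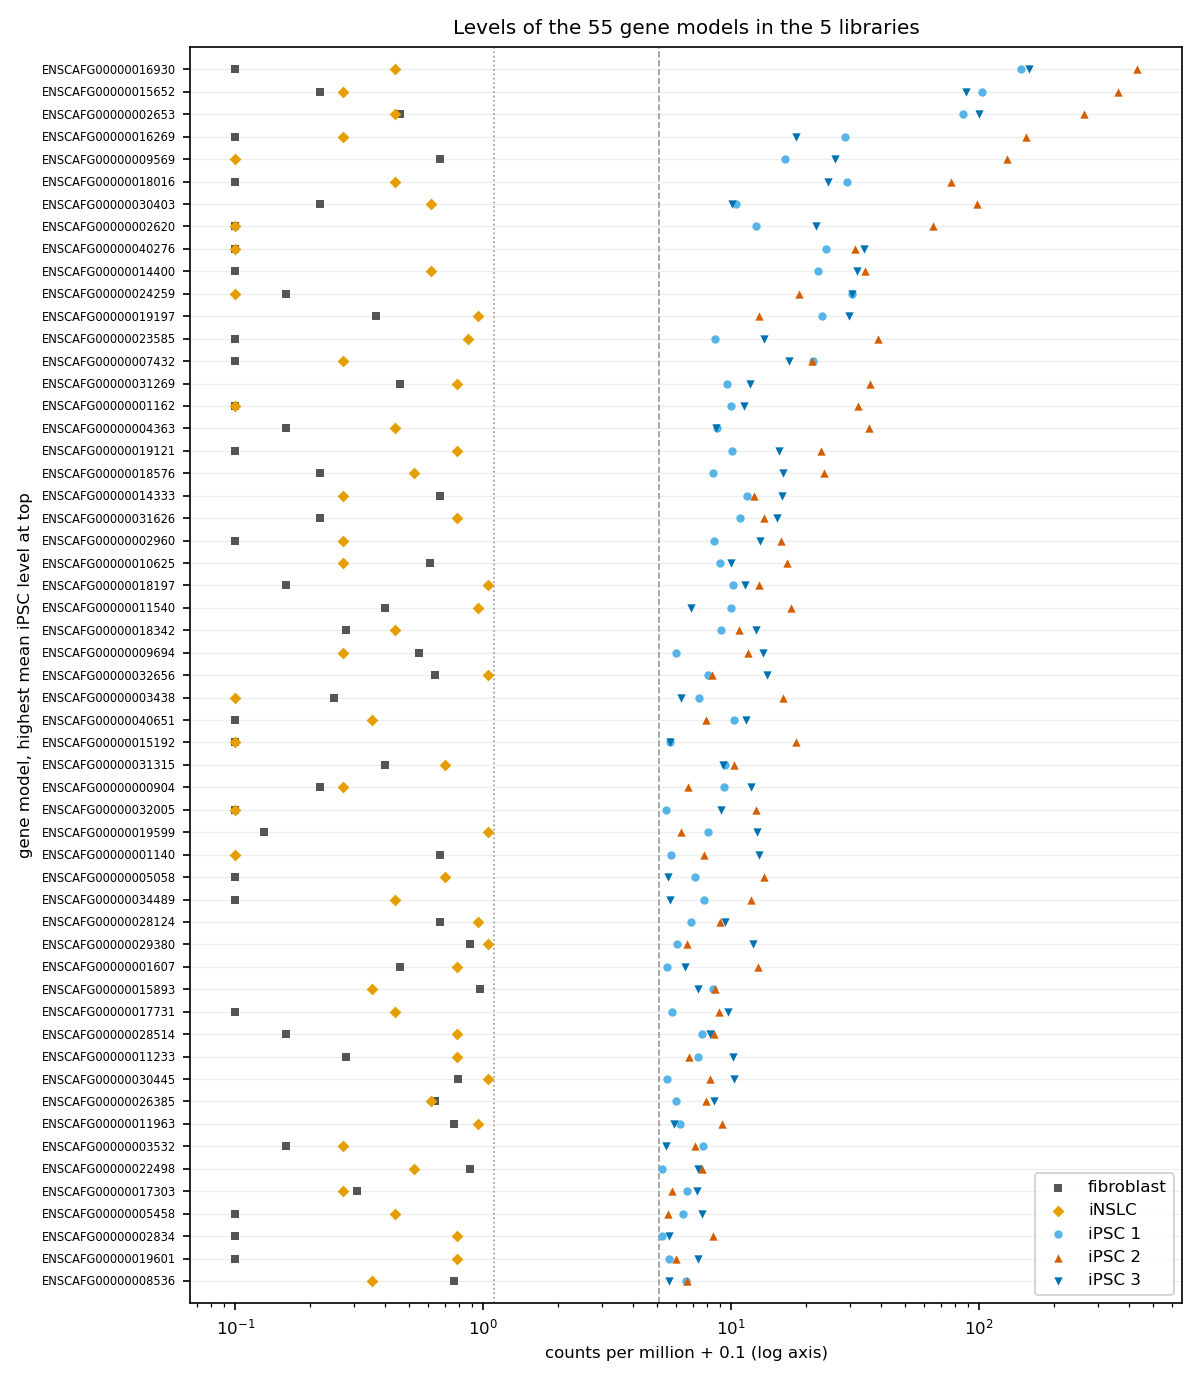
Level of each of the 55 members in the 5 libraries (horizontal axis, CPM plus 0.1 on a log axis), ordered by the mean of the iPSC clones. The dotted and dashed lines mark the limits of 1 and 5 CPM, and in 9 of the 10 uppermost genes the symbol of iPSC clone 2 lies farthest to the right, where a high clone 2 itself raises the mean that sets the order.

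The most abundant member was ENSCAFG00000016930, a model of 2 exons on the plus strand of chromosome 8 (47537364 to 47545644 in the build CanFam3.1, as for all positions here). It had 0 CPM in fibroblasts and 0.342 CPM (4 counts) at the iNSLC stage, then 147, 432 and 158 CPM in clones 1, 2 and 3, a mean of 246 ± 161 CPM (SD, n = 3). The mean, which clone 2 raised, was 2729 times the level of 3 counts in the fibroblast library. Clones 1 and 3 had similar levels, and clone 2 was 2.93 times the lowest.

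ENSCAFG00000015652 (chromosome X, 42028711 to 42029412, plus strand) is a model of 1 exon and 702 bases. It had 0.120 CPM in fibroblasts (4 counts), 0.171 CPM at the iNSLC stage (2 counts) and 103, 364 and 88.6 CPM in clones 1, 2 and 3. Per kilobase of exonic length it was the most abundant of all members, with 146, 518 and 126 CPM per kb in the clones. ENSCAFG00000002653 (chromosome 10, 49485748 to 49500260, plus strand, 10 exons) had 0.361 CPM in fibroblasts (12 counts), 0.342 CPM at the iNSLC stage (4 counts) and 85.7, 263 and 99.7 CPM in the clones. In all 3 of these genes, clone 2 was far above clones 1 and 3, which were close to each other.

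Below these, 4 members had high means that rested largely on clone 2. ENSCAFG00000016269 (chromosome 3, 74662402 to 74835102, minus strand, 7 exons) had 28.6, 154 and 18.1 CPM in clones 1, 2 and 3, with 0 CPM in fibroblasts and 0.171 CPM at the iNSLC stage. ENSCAFG00000009569 (chromosome 32, 11354096 to 11362391) had 16.4, 129 and 26.1 CPM, with 0.571 CPM in fibroblasts (19 counts) and 0 in iNSLCs. ENSCAFG00000030403 (chromosome 15, 52399477 to 52409656) had 10.4, 97.8 and 9.97 CPM, and its ratio of highest to lowest clone, 9.81, was the largest of all members. ENSCAFG00000002620, described above, is of the same kind, with a ratio of 5.21. In clones 1 and 3 none of these 4 exceeded 28.6 CPM.

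The remaining members of the 10 most abundant were more even than these 4. ENSCAFG00000018016 (chromosome X, 81691417 to 81981804, minus strand), a model of 47 exons over 290 kb and the longest span of all members, had 29.3, 76.8 and 24.4 CPM in the clones. It had 0 CPM in fibroblasts and 0.342 CPM at the iNSLC stage (4 counts). ENSCAFG00000014400 (chromosome 18, 52722640 to 52736728, 27 exons) had 22.3, 34.6 and 31.9 CPM, with 0 CPM in fibroblasts and 0.513 CPM at the iNSLC stage. It lies across ENSCAFG00000014542 on the same strand without sharing exonic bases, and that model had 237 CPM in fibroblasts, so the absence of counts of the member there was measured beside an abundant neighbour. Together with ENSCAFG00000040276 it varied least between clones among the 10, with ratios of 1.56 and 1.42.

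Ordered by level per kilobase, short models moved up. ENSCAFG00000015652 led with 264 ± 221 CPM per kb (SD, n = 3), followed by ENSCAFG00000030445 with 99.7 ± 30.1, ENSCAFG00000026385 with 95.5 ± 17.0, ENSCAFG00000028124 with 91.7 ± 15.2 and ENSCAFG00000016930 with 80.5 ± 52.8 CPM per kb. The ranges of these 5 over the clones overlapped, except that ENSCAFG00000015652 had no value under 126 CPM per kb and ENSCAFG00000026385 and ENSCAFG00000028124 none over 109. ENSCAFG00000030445, ENSCAFG00000026385 and ENSCAFG00000028124 are models of 79, 77 and 91 bases with means of 7.88, 7.36 and 8.34 CPM, so that their place rests on their length.

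Clone 2 was the highest clone for most members. The limits did not name a highest clone, but they cut by iNSLC level, with which the order of the clones went. The highest level was in clone 2 for 32 members (58.2%), in clone 3 for 21 (38.2%) and in clone 1 for 2 (3.64%). Over all 9858 models with at least 5 CPM in each clone, these shares were 28.7% for clone 2, 36.9% for clone 3 and 34.4% for clone 1. Most members had low levels, and among the 1596 models whose lowest clone had 5 to 10 CPM the shares were 37.8% for clone 2, 28.3% for clone 3 and 33.9% for clone 1, against 23, 16 and 1 of the 40 members at that level. The small share of members highest in clone 1 was 7.27% with TMM-scaled CPM and 1.82% with totals without mitochondrial models. The order went with the iNSLC level. Among genes off in fibroblasts, clone 2 was highest for 67 of the 134 with 1 to 5 CPM in iNSLCs and for 103 of the 316 (32.6%) with at least 5 CPM, and clone 1 was highest for 16.4% and 37.0%. The 32 models that failed only the fibroblast limit had clone 1 highest in 1 case (3.13%). The iNSLC library and clone 1 bear the same number in their names, and whether they came from the same colony is not stated.

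**Figure D3:**
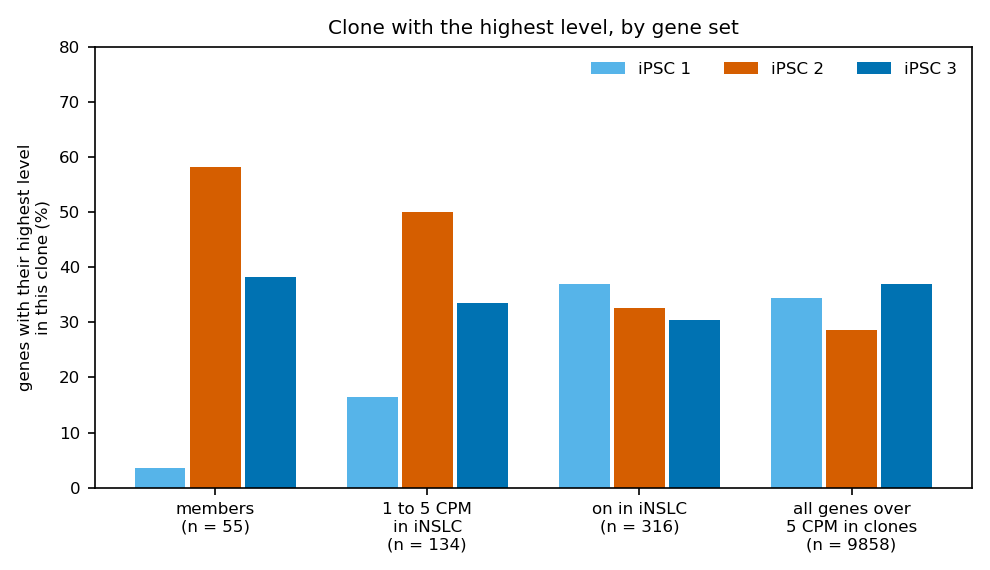
Share of gene models (vertical axis, percent) with their highest CPM in iPSC clone 1, 2 or 3, for the members, for the 134 and 316 models off in fibroblasts with higher iNSLC levels, and for all 9858 models with at least 5 CPM in each clone. The bar of clone 1 falls from 37.0% at the highest iNSLC level to 3.64% in the members, and each bar is a share of genes within the same 3 libraries, without error.

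The share highest in clone 2 was close to the same at low and at higher levels, when level was taken from the lowest clone. It was 57.5% of the 40 members whose lowest clone had 5 to 10 CPM and 9 of the 15 members above that. The ratio of highest to lowest clone was at least 2 for 26 members, with clone 2 highest for 21 and clone 3 for 5, and at least 4 for 7 members, all with clone 2 highest. The lowest clone was clone 1 for 31 members, clone 3 for 16 and clone 2 for 8.

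The spread between clones, as the median ratio of highest to lowest clone, was 1.88 for the members and 1.47 for all 9858 models. The other genes off in fibroblasts lay on both sides of the members, with 1.66 for the 134 with 1 to 5 CPM in iNSLCs and 1.92 for the 316 with at least 5 CPM. Ratios of at least 2 were found for 47.3% of members, 18.9% of all, 36.6% of the 134 and 47.8% of the 316. Level moved with this spread, and among models whose lowest clone had 5 to 10 CPM the median was 1.87 for members, 1.77 for all, 1.81 for the 134 and 2.18 for the 316. The median over genes of clone 2 relative to the mean of clones 1 and 3 was 1.21 for members and 0.976 for all 9858 models.

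At the even end were members of low level. ENSCAFG00000031315 (chromosome 31, 38261199 to 38261972, 1 exon) had 9.34, 10.2 and 9.18 CPM in clones 1, 2 and 3, a ratio of 1.11. ENSCAFG00000028514 (chromosome 29) had 7.51, 8.44 and 8.10 CPM, and ENSCAFG00000015893 had 8.32, 8.49 and 7.26 CPM. ENSCAFG00000008536 (chromosome 27) had 6.49, 6.54 and 5.51 CPM. ENSCAFG00000007432 (chromosome 25, 18753126 to 18780420, 25 exons) was the most abundant of the even ones, with 21.2, 21.1 and 17.0 CPM and a mean of 19.8 ± 2.38 CPM (SD, n = 3). At the uneven end, ENSCAFG00000023585 (chromosome 2) had 8.46, 39.0 and 13.4 CPM, a ratio of 4.61.

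The members were scattered over the genome. They lay on 28 chromosomes, with 5 each on chromosomes 6 and X and 4 on chromosome 1, and 30 were on the plus strand and 25 on the minus strand. The share on X was 9.09%, against 3.56% of all 9858 models and 6.33% of the 316 models with at least 5 CPM in iNSLCs. No 3 members followed each other within 500 kb. There were 4 pairs of members within that distance, and other expressed models lay inside each.

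The closest pair was ENSCAFG00000001140 and ENSCAFG00000001162 on chromosome 11, 151 kb apart with 2 models between them, both on the plus strand. The levels of ENSCAFG00000001140 in clones 1, 2 and 3 were 5.61, 7.64 and 12.8 CPM, highest in clone 3, whereas ENSCAFG00000001162 was highest in clone 2. On chromosome X, ENSCAFG00000015652 and ENSCAFG00000032005 were 380 kb apart. Of the 22 models between them 14 had at least 5 CPM in fibroblasts, so the stretch as a whole was not off in the earlier stages. The pairs on chromosome 13 (ENSCAFG00000032656 and ENSCAFG00000001607, 215 kb) and chromosome 20 (ENSCAFG00000019121 and ENSCAFG00000019197, 316 kb) enclosed 13 and 15 models, of which 10 and 7 had at least 5 CPM in fibroblasts.

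The gene models of the members had a smaller median span than those of expressed genes as a whole. The median exonic length was 2829 bases, against 2662.5 bases over the 9858 models (a ratio of 1.06, which is 0.72 for the members that overlap no other model), while the median span from start to end was 10.2 kb against 24.1 kb and the median number of exons 7 against 10. For the 316 models with at least 5 CPM in iNSLCs, the medians were 3270 bases, 44.1 kb and 10 exons. The class with 1 to 5 CPM in iNSLCs resembled the members, with 2878.5 bases, 13.3 kb and 7 exons. Models of 1 exon made up 7 of the 55 members (12.7%), 12.7% of the 134, 5.06% of the 316, 4.15% of the 9858 and 19.5% of all 32183 models.

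A subset of 4 members were very short models of 1 exon, with 77 to 126 bases and means between 6.65 and 8.34 CPM. Models under 200 bases made up 7.27% of members, 3.73% of the 134 and none of the 316, and 0.345% of the 9858 but 12.6% of all 32183 models. In 3 of the 4 cases, the nearest tested neighbour lay within 0.339 kb on the same strand. These neighbours also had under 1 CPM in both earlier libraries and higher levels in each clone. The highest clone was the same in the first of the pairs below and differed in the others. ENSCAFG00000028124 (chromosome 24, 35958821 to 35958911) had 6.76, 8.94 and 9.32 CPM in clones 1, 2 and 3, and its neighbour ENSCAFG00000026287 had 4.50, 5.64 and 6.88 CPM, with 0.841 CPM in fibroblasts and 0.855 CPM at the iNSLC stage. ENSCAFG00000026385 (chromosome 7, 25364626 to 25364702) had 5.89, 7.79 and 8.39 CPM, and its neighbour ENSCAFG00000025882 3.38, 5.99 and 4.02 CPM.

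The third short model, ENSCAFG00000022498 (chromosome 21, 7022772 to 7022897), had 5.14, 7.54 and 7.26 CPM, and its neighbour ENSCAFG00000025775 had 2.64, 2.60 and 4.05 CPM. That neighbour, at 0.150 CPM in fibroblasts, was called higher in iPSCs (log2 fold change 3.83, adjusted p = 0.0273, edgeR). The first 2 neighbours missed the threshold, with adjusted p of 0.0559 and 0.0576. ENSCAFG00000030445 (chromosome 6, 38309139 to 38309217, 79 bases) lies instead within the bounds of ENSCAFG00000019346 on the same strand and shares no exonic base with it. It had 0.691 CPM in fibroblasts, 0.940 CPM at the iNSLC stage and 5.38, 8.14 and 10.1 CPM in the clones. The enclosing model had 253 CPM in fibroblasts, 777 CPM at the iNSLC stage and 1208 to 1252 CPM in the clones, and the part that its transcripts have in the counts of the short model was not tested.

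Other members also overlapped a neighbour. Of the 55 members 19 overlapped another model and 6 shared exonic bases with one, 3 on the same strand and 4 on the other, with 1 counted in both. A partner with at least 5 CPM in fibroblasts was present for 8 members. ENSCAFG00000029380 (chromosome 24) shared 905 of its 1822 exonic bases with ENSCAFG00000030493 on the other strand, which had 71.97 CPM in fibroblasts, 62.7 CPM at the iNSLC stage and 79.2, 84.1 and 109 CPM in the clones. The member itself was near the limits in both earlier stages, at 0.781 and 0.940 CPM. The strand setting of the counting is not given, so counts of such pairs are uncertain. ENSCAFG00000016930, ENSCAFG00000015652 and ENSCAFG00000002653 overlapped no other model.

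In the fit across all genes, every member passed against fibroblasts and most did against iNSLCs. All 55 were tested and had higher fitted levels in iPSCs than in both other groups, as the rule required. All 55 were called higher than in fibroblasts (13.7% of all tested genes were called in this direction, and 14.3% were called lower). Against iNSLCs 41 were called, where 3.51% of all tested genes were called higher and 7.71% lower. Nothing can be read from these counts about activation, since the rule used the same contrasts. The 14 members that missed the threshold against iNSLCs had adjusted p between 0.0507 and 0.113 (edgeR). They included ENSCAFG00000030403 and ENSCAFG00000016269, the members with the 2 largest ratios between clones. ENSCAFG00000009569, next with a ratio of 7.90 and with 0 counts in iNSLCs, was called.

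The fit took its spread from the clones of this 1 dog and lent it to the lone fibroblast and iNSLC libraries, so these p-values measure differences beyond the spread of clones and not of animals. Without clone 3, edgeR called 34 members against fibroblasts, where 7.53% of all tested genes were called higher. Against iNSLCs it then called 0 members and 0 genes of any kind as higher. With all clones DESeq2 called 55 members against iNSLCs (8.87% of all genes) and limma-voom 12 (1.60%).

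The genes next to the members give a measure that the rule did not use. The nearest tested non-member that does not overlap was taken for each member, which gave 55 different neighbours at a median distance of 6.27 kb. Against fibroblasts 12 neighbours (21.8%) were called higher and 5 (9.09%) lower, where 13.7% and 14.3% of all tested genes were. Taken as a binomial share, the 21.8% had a 95% interval of 11.8% to 35.0%, which includes the 13.7%. Other definitions of a neighbour gave 27.3% (at least 10 kb away), 29.1% (on the other strand) and 24.5% (both flanks). Their intervals began at 16.1%, 17.6% and 16.8%, above the 13.7%. All these intervals treat genes measured in the same libraries as independent. The median log2 fold change of the 55 nearest neighbours was 0.78 against 0.27 for all tested genes. Against iNSLCs 3 neighbours (5.45%) were called higher and 1 lower, with a median log2 fold change of 0.72 against 0.20. These counts moved with the clones used, from 6 to 18 against fibroblasts and from 0 to 11 against iNSLCs when 1 clone was left out, the lowest without clone 3 and the highest without clone 2. The share of all tested genes called moved with them, from 7.53% to 21.2% and from 0% to 9.07%. Most neighbours were not off at the start: 33 (60.0%) had at least 5 CPM in fibroblasts, near the 57.1% of all tested genes.

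**Figure D4:**
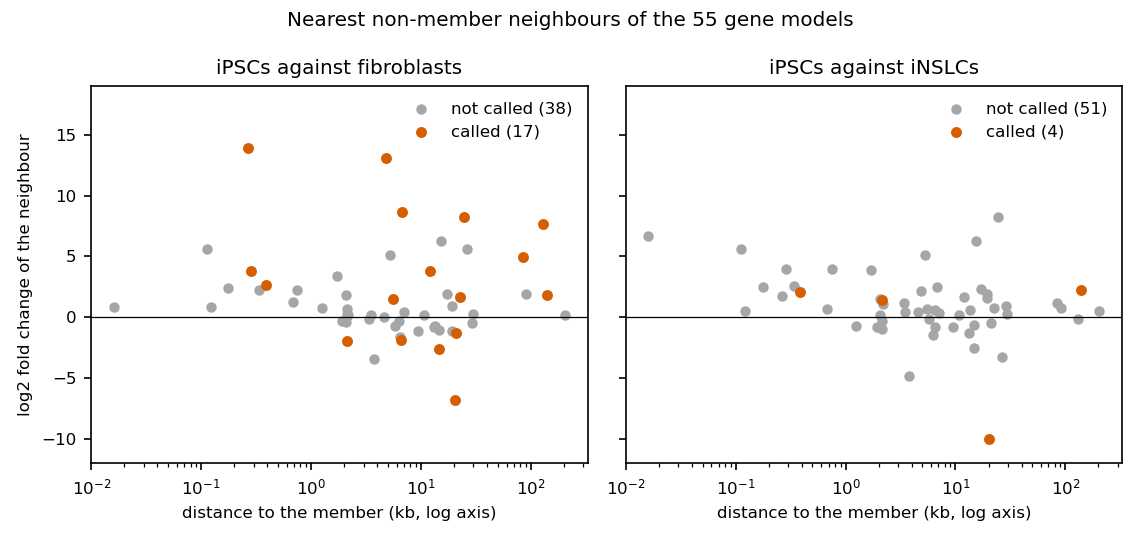
Fitted log2 fold change (vertical axis) of the nearest non-overlapping non-member of each member, by its distance in kb (log axis), for iPSCs against fibroblasts (left) and against iNSLCs (right). Called neighbours (edgeR, adjusted p under 0.05) number 17 on the left and 4 on the right and are found at short and long distances, and fold changes over 5 belong to neighbours with 0 counts in the earlier stage and depend on the prior count of the fit.

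Of the 55 neighbours 2 (3.64%, against 1.81% of all tested genes) were themselves off in fibroblasts and at least 5 CPM in both iNSLCs and all clones. Every member is under 1 CPM in iNSLCs by the rule, so such a neighbour must differ from its member at that stage. ENSCAFG00000018020 (chromosome X, 81982070 to 82250078) starts 0.265 kb from the long member ENSCAFG00000018016 and runs away from it on the other strand. It had 0 CPM in fibroblasts, 21.5 CPM at the iNSLC stage and 66.7, 120 and 54.7 CPM in clones 1, 2 and 3, where the member had 0, 0.342, 29.3, 76.8 and 24.4 CPM in the same order. Both were highest in clone 2 and lowest in clone 3. The member and this neighbour thus shared the order of the clones.

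The other case was ENSCAFG00000003510 (chromosome 14, 59828476 to 59943315), which ends 4.83 kb from the end of ENSCAFG00000003532 on the other strand. It had 0 CPM in fibroblasts, 8.89 CPM at the iNSLC stage and 66.4, 40.9 and 28.1 CPM in the clones. The member had 0.0601, 0.171, 7.58, 7.04 and 5.36 CPM, with the same order of the clones. Both neighbours were called higher than in fibroblasts (adjusted p = 0.00191 and 0.00258, edgeR) and neither against iNSLCs (adjusted p = 0.10004 and 0.0779).

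Other neighbours differed in whether they resembled their member. Of all 34 neighbours with at least 5 CPM in each clone, 16 had their highest level in the same clone as their member. Clone 2 was highest for 13 of the 34 (38.2%), against 28.7% of all 9858 models. Clone 3 was highest for 13 as well and clone 1 for 8, against 36.9% and 34.4% of all models. Clone 2 was highest for 8 of 19 neighbours (42.1%) of members highest in clone 2. Beside members highest in clone 3, it was highest for 5 of 13 (38.5%). ENSCAFG00000017734, 20.3 kb from ENSCAFG00000017731 on chromosome X, had 0.421 CPM in fibroblasts, 4.96 CPM at the iNSLC stage and 0 CPM in all 3 clones. It was the neighbour called lower in iPSCs than in iNSLCs (adjusted p = 0.0214, edgeR), while the member beside it had 5.68, 8.79 and 9.59 CPM in the clones. Beside ENSCAFG00000002653, ENSCAFG00000002659 had 37.2 CPM in fibroblasts, 35.0 CPM at the iNSLC stage and 143, 338 and 127 CPM in the clones. It was not called in either contrast (adjusted p = 0.0759 and 0.0791, edgeR) and had clone 2 highest, as the member did.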

How the data were processed

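RNA was sequenced in 5 libraries of 3 groups, which were taken from the sample titles. The deposited values are raw counts per gene model, made by the authors with featureCounts 1.5.2, STAR 2.5.3a and Trim Galore 0.4.0 on CanFam3.1 per the submitters' processing notes. The sources used here do not give the settings for strand, read pairs and multi-mapping. The series table and the tables per library differed in 0 values. CPM was the count over the column total. No reference matched the identifiers (0 of 43286 rows of the table at hand, assembly UU_Cfam_GSD_1.0, hold one), so lists of marker genes by symbol were not analysed and no sequence was read.

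iPSCs were compared with fibroblasts and with iNSLCs in 1 fit of all 5 libraries with edgeR 4.0.16 (R 4.3.3), using its quasi-likelihood test after filterByExpr and TMM scaling, a Benjamini-Hochberg adjusted p under 0.05, and 2 residual and 4.06 prior degrees of freedom. TMM factors lay between 0.770 and 1.12. DESeq2 1.42.0, limma-voom (limma 3.58.1), other scalings, filters, limits and definitions of a neighbour, and leaving out each clone, were the alternatives. Folds against 0 counts were taken against 3 counts in that library, which covers counting error only.

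Members named are the 10 with the highest mean CPM, the 5 highest per kilobase, the 5 with the largest and the 5 with the smallest ratio between clones, the nearest to each limit, and the 5 highest with 0 counts in both earlier stages, 26 in all. Members of pairs, of overlaps and the short models, and the neighbours given, were named after their values were seen. The members and lists were chosen with earlier results of these data known.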

Additional observations from a re-analysis of the deposited data

How the results depend on the processing

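The number of members depended on the limits: it was 25 with a lower limit of 0.5 CPM, 141 with 2 CPM, 207 with an upper limit of 2 CPM and 15 with 10 CPM, against 55. It was 46 with TMM-scaled CPM, all among the 55, and 61 with totals without mitochondrial models, and 59 to 75 with 1 clone left out of the rule. Leaving out 1 clone gave 34 to 55 members called against fibroblasts, where 7.53% to 21.2% of all genes were called higher. Against iNSLCs it gave 0 to 55 (0% to 9.07% of all genes), and limma-voom called 12 (1.60%). The neighbours called higher than in fibroblasts numbered 20 with library size only, which moves the scale of all genes (22.1% called). They numbered 6 to 18 with a clone left out (7.53% to 21.2% of all genes). Other definitions gave 15 of 55 (27.3%) at least 10 kb away, 16 of 55 (29.1%) on the other strand and 27 of 110 (24.5%) for both flanks. The share over all genes was 13.7%. Against iNSLCs, in place of 3, they numbered 1 with size factors of DESeq2 (3.18% of all genes), 5 with library size only (4.79%), 8 without a filter (3.86%), 12 with DESeq2 (8.87%) and 6 for neighbours on the other strand, and 0 to 11 with a clone left out (0% to 9.07%), against 3.51% of all genes with all clones. Without clone 3 edgeR called 0 neighbours against iNSLCs, where 0% of all tested genes were called higher. The share of models of 1 exon exceeded that of the expressed models by 8.58 percentage points, but was 6.74 points lower than among all models (a difference of -6.74) and 0.58 points lower among members of at least 10 CPM (-0.58). The median exonic length was 1.06 times that of expressed models and 2.59 times that of all models, and 0.72 times that of expressed models for members that overlap no other model. Of 61 alternative values 42 kept within the range set for no change. Among them were the ratio between clones and the shares of members highest in each clone, under both other scalings. The share highest in clone 1 was 7.27% or 1.82% in place of 3.64%. Both lay within its range for no change, 0.443% to 12.5%, which was a binomial interval over the 55 members. Such an interval treats genes measured in the same libraries as independent, so it does not measure the spread between clones. Except for the fewer samples or models in some settings, the cause of these changes was not tested. No paired analysis was possible because the fibroblast and iNSLC groups have 1 library each. Depth limits the iNSLC side most, where 3 counts correspond to 0.256 CPM.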
